A study of Drosophila melanogaster with 6 samples.

Results

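The RNA of 9 genes of the trithorax group was compared between wing and haltere imaginal discs of Drosophila melanogaster, the sheets of larval cells that become the wing and the balancing organ behind it. They were taken by name from the authors' table of gene differences, and all 9 names (trx, ash1, ash2, brm, mor, osa, Snr1, Trl and kis) had a row among its 7762 genes. The study sequenced RNA from 3 wing disc samples and 3 haltere disc samples, 6 in all. The larvae were Canton S with a wild-type genotype, at the wandering third-instar stage, for every sample, so the groups differed in the disc dissected and carried no mutation or treatment. The animals behind each sample are not given in the sources used here beyond the statement of biological replicates, and a whole disc holds several cell populations.

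Trithorax group proteins keep genes active through cell divisions and oppose the Polycomb group, which keeps them silent. They were found largely through mutations that mimic or modify the loss of homeotic genes, Ubx among them. Some place or read histone marks, some move nucleosomes with energy from ATP, and Trl encodes the GAGA factor, a DNA-binding protein of many promoters and of Polycomb response elements. Ubx, the homeotic gene of the haltere segment, is a classic target, and the present question was whether the RNA of its activators differed between discs in which Ubx is low, the wing discs, and discs in which it is high, the haltere discs.

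No trithorax group gene differed between wing and haltere discs beyond the error of the authors' fit. In the authors' deposited table, 0 of 9 had an FDR under 0.05 (edgeR, Benjamini-Hochberg), against 104 of 7762 genes, or 1.34%, over the whole table. At an unadjusted p under 0.05 the count was also 0 of 9, against 335 genes or 4.32%. The log2 fold changes of the 9 genes lay between -0.40 and 0.29 in the authors' deposited table, with a median of -0.029. Over all genes the median was 0.00047 and the quartiles were -0.17 and 0.16. The deposited FDR was 1 for each of the 9, as it was for 96.1% of all genes. With so few genes called in the table as a whole, 0 of 9 is near the background.

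A positive fold change is read here as higher in the wing disc. The table does not name its numerator, and the sign is taken from Ubx, whose RNA marks the haltere disc. The authors' deposited table put Ubx at -5.22 (FDR 2.98e-59, edgeR), which on this reading is 37.4-fold higher in the haltere disc. Antp, a homeotic gene active in the segment that bears the wing, was at 2.08 in the authors' deposited table (FDR 3.56e-10, edgeR), which is 4.24-fold higher in the wing disc. The remaining homeotic genes listed as targets (abd-A, Abd-B and Scr) are not analysed here. If the reading were wrong, every sign would turn round, and the p-values and the sizes of the changes would stay as they are.

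The table holds 1 value per gene for both tissues together, with no value for a single sample, so levels in each library, their SD and their overlap between tissues cannot be shown. An approximate standard error was taken from each row, as the size of the log2 fold change over the standard normal value that its two-sided p corresponds to, and gave an approximate 95% interval. For the 9 genes this error ran from 0.24 to 0.41 on the log2 scale. All 9 intervals spanned 0, which follows from how they were built, since no p-value of the 9 was under 0.05. In bulk discs, fewer cells of a type and less RNA per cell cannot be told apart.

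**Figure D1:**
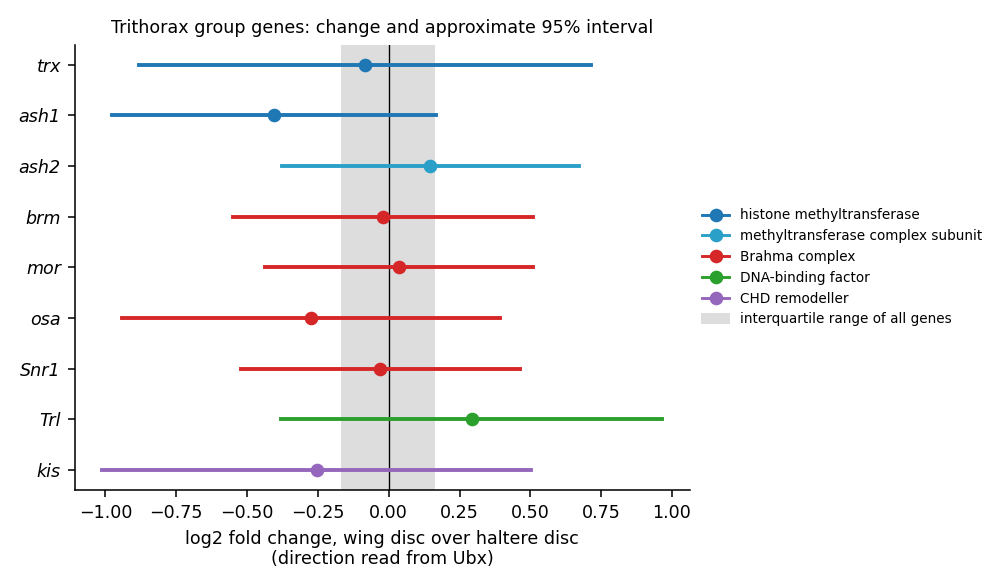
Log2 fold change of each trithorax group gene, wing disc over haltere disc (points, horizontal axis), with the approximate 95% interval implied by the authors' p-value (lines) and the interquartile range of all genes (grey band, -0.17 to 0.16). Genes run down the page by role, shown in colour, and every line crosses 0, from the narrowest, mor, to the widest, trx.

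Among the histone methyltransferases, trx encodes the enzyme related to mammalian MLL that methylates histone H3 at lysine K4. Its gene lies on chromosome 3R from 14263358 to 14286903, on the minus strand of dm6. In the authors' deposited table trx had a log2 fold change of -0.083 and a p-value of 0.839 (edgeR), and its mean expression was 7.83 log2 CPM. Its approximate interval, -0.88 to 0.72, was the widest of the 9, so a wing disc level between 0.543 and 1.64 times the haltere disc level is covered by it.

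The gene ash1 encodes a second methyltransferase, which acts on histone H3 at lysine K36, and lies on chromosome 3L from 19590773 to 19598755, minus strand. Its change was the largest in size of the 9 genes, at -0.40 in the authors' deposited table, or 0.756 times the haltere disc level, with a p-value of 0.166 (edgeR). The interval ran from -0.98 to 0.17. A change of this size was not unusual for the table, since 1156 genes of the authors' deposited table had a larger one and 85.1% did not exceed it.

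The third gene of this class, ash2, encodes a shared subunit of the complexes around the trx-type enzymes. It lies on chromosome 3R from 24650125 to 24653376, plus strand. The authors' deposited table gave ash2 a log2 fold change of 0.15 with a p-value of 0.582 (edgeR), opposite in sign to trx and ash1, and an interval from -0.38 to 0.67 that overlaps both of theirs.

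The Brahma complex is the fly SWI/SNF remodeller, with brm as its ATPase and mor and Snr1 as core subunits. These 3 genes had the smallest changes of the 9. In the authors' deposited table brm, on chromosome 3L from 15970082 to 15982869, minus strand, was at -0.020 and had a p-value of 0.942 (edgeR). The row of mor, on chromosome 3R from 15968134 to 15972913, minus strand, held 0.037 and a p-value of 0.877 (edgeR) in the authors' deposited table. Snr1, on chromosome 3R from 5470926 to 5472754, plus strand, stood at -0.029 in the authors' deposited table with a p-value of 0.908 (edgeR).

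Their intervals were also among the narrowest. The interval of mor ran from -0.44 to 0.51, that of Snr1 from -0.52 to 0.46, and that of brm from -0.55 to 0.51. For mor this corresponds to a wing disc level between 0.739 and 1.42 times the haltere disc level.

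The gene osa encodes the ARID-domain subunit that defines the BAP form of the complex and lies on chromosome 3R from 17687818 to 17718350, minus strand. It differed more than the core subunits, at -0.27 in the authors' deposited table with a p-value of 0.420 (edgeR). Its interval, -0.94 to 0.39, was wider than theirs and contained all 3 of their values. The difference between osa and the core subunits was not tested.

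Trl was the only one of the 9 with a positive change above 0.15. In the authors' deposited table it stood at 0.29 with a p-value of 0.393 (edgeR), and its interval ran from -0.38 to 0.96. Its mean expression, 3.37 log2 CPM in the authors' deposited table, was the lowest of the 9 genes. Trl lies on chromosome 3L from 14747929 to 14761049, minus strand.

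The low count of Trl stands beside an overlap in the annotation. Of its 6254 annotated exon bases, 4865 (77.8%) are also exon bases of another gene on the same strand. The whole 4441 exon bases of CG42507 lie within those of Trl, and Tsen34 shares a further 424 of its 902. Values of CG42507 and Tsen34 are not analysed here. HTSeq, the counter named in the submitters' processing notes, gives no gene a read that falls on exons of several genes in its default mode. The mode used here is not given in the sources used here, and the part of the overlap in the level of Trl was not tested. Strand cannot separate these genes, since all 3 are on the minus strand.

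The other 8 genes shared little. The share of exon bases that belong also to another gene was 4.13% for trx and 2.20% for kis, all on the opposite strand, and under 1% for the rest. These opposite-strand partners were CG14839 and asRNA:CR46020 for trx, and CG13693 and lncRNA:CR44221 for kis. The libraries were directional, but whether strand was used in counting is not given in the sources used here.

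The remaining gene, kis, encodes a CHD-type remodeller, and mutations in it were recovered as suppressors of Polycomb. It lies on chromosome 2L from 210735 to 250823, minus strand. At 9.13 log2 CPM in the authors' deposited table it drew the most reads of the 9, which also reflects its 19229 exon bases. In the same authors' deposited table its change between the discs was -0.25 on the log2 scale, with a p-value of 0.512 (edgeR), and the interval ran from -1.01 to 0.50.

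Levels were compared between genes only after division by exon length. On this scale, mean CPM per kilobase of exon over both tissues, the order from high to low was mor, Snr1, brm, kis, osa, ash2, trx, ash1 and Trl. The highest were mor at 52.3 and Snr1 at 49.6 CPM per kilobase, at the percentiles 90.2 and 89.7 of all genes with a known exon length. The ATPase gene brm followed at 32.0 CPM per kilobase and kis at 29.1.

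Lower down, osa had 20.6, ash2 had 17.0 and trx had 16.2 CPM per kilobase, which put these 3 at percentiles between 68.8 and 75.0. The methyltransferase gene ash1 stood apart at 4.37 CPM per kilobase, at the percentile 29.9. Trl had 1.66 CPM per kilobase, at the percentile 12.9. Counted over the 1389 exon bases it shares with no other gene, Trl had 7.47 CPM per kilobase, above ash1. This second scale assigns every counted Trl read to those bases. It is not an upper limit, since reads that touch shared bases may not have been counted. The spread of these levels over samples is not known, so it cannot be said which neighbours in the order differ.

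**Figure D2:**
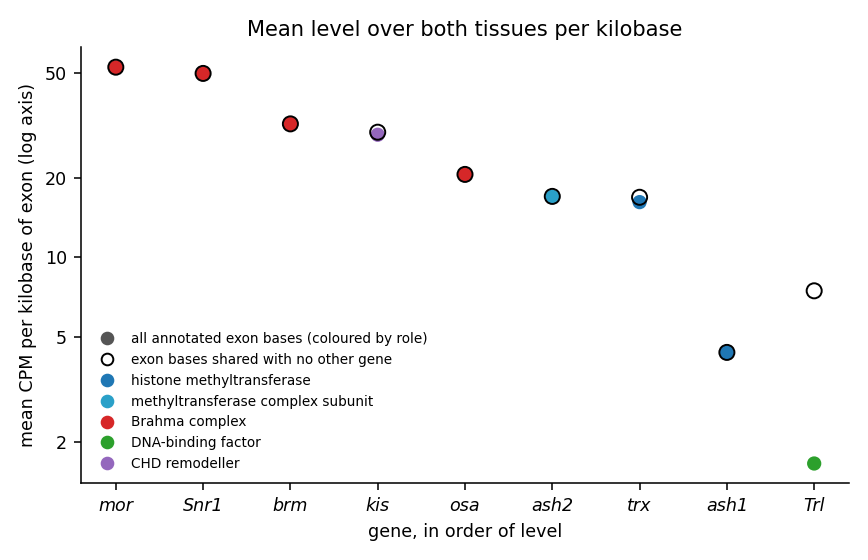
Mean CPM per kilobase of exon over both tissues (vertical log axis) for the 9 trithorax group genes in order of level; filled points use all annotated exon bases and are coloured by role, open circles use exon bases shared with no other gene. The Brahma core genes mor and Snr1 are highest, and Trl is the one gene whose circle (7.47) stands far from its point (1.66).

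The other Brahma subunits had levels both above and below those of the 4 examined Brahma genes. Bap60, an accessory core subunit, had 85.2 CPM per kilobase and Bap55, an actin-related protein, 60.5. The subunits of the PBAP form of the complex were lower, with polybromo at 14.2, Bap170 at 11.2 and e(y)3 at 9.66 CPM per kilobase, set beside 20.6 for osa of the BAP form. Act5C, the actin shared with the cytoskeleton, was at 1351 CPM per kilobase. These are mean levels of RNA, with no error known.

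The sizes of the changes that were called were read from genes of like expression. They depend on which called genes lie at that expression, and are not a detection limit. Among the 382 genes within 0.5 log2 CPM of mor in the authors' deposited table, 5 had an FDR under 0.05 (edgeR), and the smallest change among these 5 was 1.15 in size. For ash1 the smallest called change among the genes within 0.5 log2 CPM was 1.20 in the authors' deposited table, and for Snr1 it was 0.92. Within 0.5 log2 CPM of kis lay 97 genes of the authors' deposited table, and 0 of them had an FDR under 0.05 (edgeR). Apart from kis, which had no called gene to be set beside, each of the 9 genes changed by less than every called gene at like expression. That largely restates that none of the 9 was called, and is not a separate result. The absence of calls does not show that the tissues are equal.

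**Figure D3:**
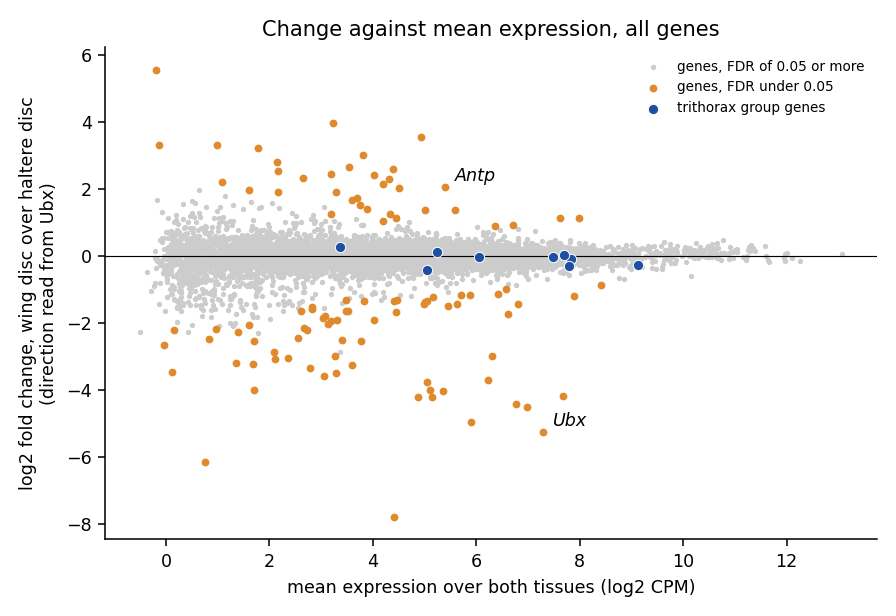
Log2 fold change, wing disc over haltere disc (vertical axis), against mean expression in log2 CPM over both tissues (horizontal axis) for all 7762 genes; orange points have an FDR under 0.05 (104 genes) and blue points are the 9 trithorax group genes. The blue points lie between -0.40 and 0.29, inside the grey cloud, while Ubx and Antp lie at -5.22 and 2.08.

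The approximate standard errors differed among the 9 genes in a way that mean expression did not follow. The genes with the highest expression in the authors' deposited table, kis, trx and osa, had errors of 0.39, 0.41 and 0.34, against medians of 0.25, 0.26 and 0.26 among the genes within 0.5 log2 CPM of each. Errors for mor, Snr1 and brm were 0.24, 0.25 and 0.27, close to the same medians of 0.26. For ash1 and ash2 the errors were 0.29 and 0.27, against medians of 0.27 and 0.26, and for Trl the error was 0.34 against 0.38. The genes kis, trx and osa also have the longest exon lengths of the 9, at 19229, 14052 and 10723 bases. Next in length were ash1 at 7615 and Trl at 6254 bases. The part of length in the errors was not tested.

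Exon length moved with the fold change over the whole table. When genes were split into 5 equal groups by exon length, the group with the shortest exons had a median log2 fold change of 0.11. In the group with the longest, from 4281 bases upward, it was -0.11, with 71.0% of genes negative. Across 7658 genes Spearman's rho was -0.27, as a description, since genes are not independent replicates and share the same libraries. The group with the longest exons held 6 trithorax group genes, namely trx, ash1, brm, osa, Trl and kis. With the median of its own length group taken off, ash1 was at -0.30, osa at -0.17, kis at -0.14, brm at 0.089 and trx at 0.026, while Trl was at 0.40. The median of the 9 genes was then 0.026, against -0.029 before, so its sign depends on this step. The part of length in the members' values was not tested.

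**Figure D4:**
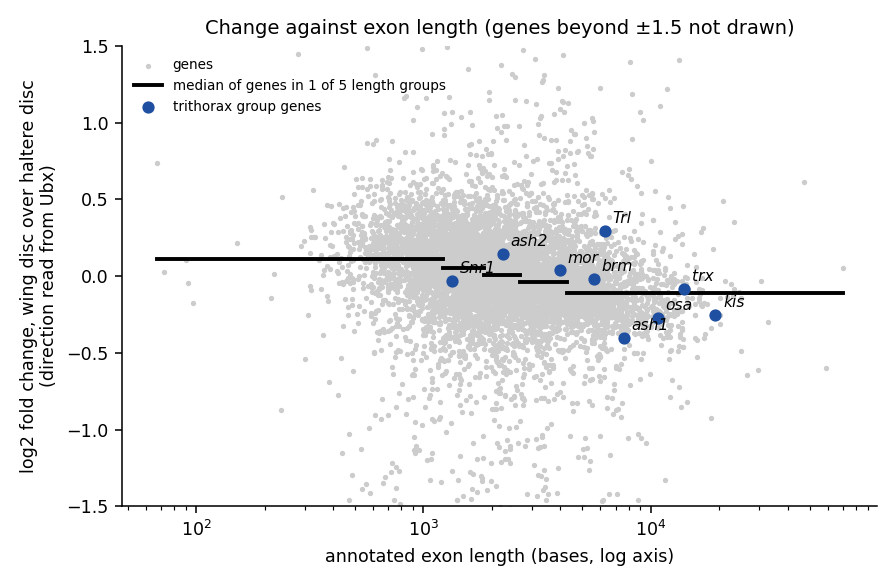
Log2 fold change, wing disc over haltere disc (vertical axis), against annotated exon length in bases (horizontal log axis); grey points are genes, black bars the medians of the 5 groups of genes by exon length, and blue points the 9 trithorax group genes. The bars step down from 0.11 to -0.11. Of the long genes, ash1, osa and kis lie below the last bar, while trx, brm and Trl lie above it.

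The wider machinery around these genes gave the same count. The 4 lists of related genes held 44 genes with a row, and 0 of them had an FDR under 0.05 or an unadjusted p under 0.05 in the authors' deposited table (edgeR). Over all genes the shares were 1.34% and 4.32%, so 0 of 44 is near the background. The same holds for the counts of the single lists below, which are smaller. Each of the 44 had a log2 fold change under 0.5 in size in the authors' deposited table. Small changes were common there, since 85.1% of all genes had one no larger in size than that of ash1 (-0.40). Of the 44, 29 were negative, against 49.9% of all genes and, as given above, 71.0% of the genes with the longest exons. The signs were not tested.

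Among 8 other Brahma complex subunits, 0 passed the test and 6 were negative, with a median of -0.087 in the authors' deposited table. The smallest p-value belonged to e(y)3, which encodes the SAYP subunit of the PBAP form, at -0.39 with p = 0.190 (edgeR) in the authors' deposited table. At the other end Bap55 was at 0.085 in the authors' deposited table. Within the authors' deposited table Bap60 was at -0.0079, polybromo at -0.061 and Bap170 at -0.19.

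Of 14 genes of the COMPASS family, which groups the Set1, trx and trr methyltransferase complexes, 0 passed the test and the median was -0.028 in the authors' deposited table. The extremes there were Ncoa6, a subunit of the trr complex, at -0.32, and Rbbp5, a core subunit shared by all of these complexes, at 0.33 with p = 0.286 (edgeR), the smallest p-value of the list in the authors' deposited table. The demethylase gene Utx was at -0.020 in the authors' deposited table, and Mnn1, the menin gene of the trx complex, at 0.060.

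Of 12 other trithorax group genes and partners, 0 passed the test and 9 were negative, with a median of -0.22 in the authors' deposited table, below the lower quartile of all genes. The lowest was nej, which encodes the CBP acetyltransferase, at -0.42 with p = 0.220 (edgeR) in the authors' deposited table, the smallest p-value of the list. The Mediator kinase module genes kto and skd, both first known as trithorax group genes, were at -0.33 and -0.32 in the authors' deposited table. The highest was MRG15, a partner of the ash1 product, at 0.25 in the authors' deposited table. The median exon length of this list was 7380 bases (6254 for the 9 genes and 2212 for all genes), and the part of length in its median was not tested.

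Of 10 other remodeller genes, 0 passed the test and the median was -0.019 in the authors' deposited table. Nurf-38, the pyrophosphatase subunit of the NURF complex, had the highest value and the smallest p-value, 0.39 with p = 0.129 (edgeR) in the authors' deposited table, and Chd1 had the lowest value, -0.23. The ATPase genes Iswi and Mi-2 were at 0.021 and -0.0086 in the authors' deposited table.

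**Figure D5:**
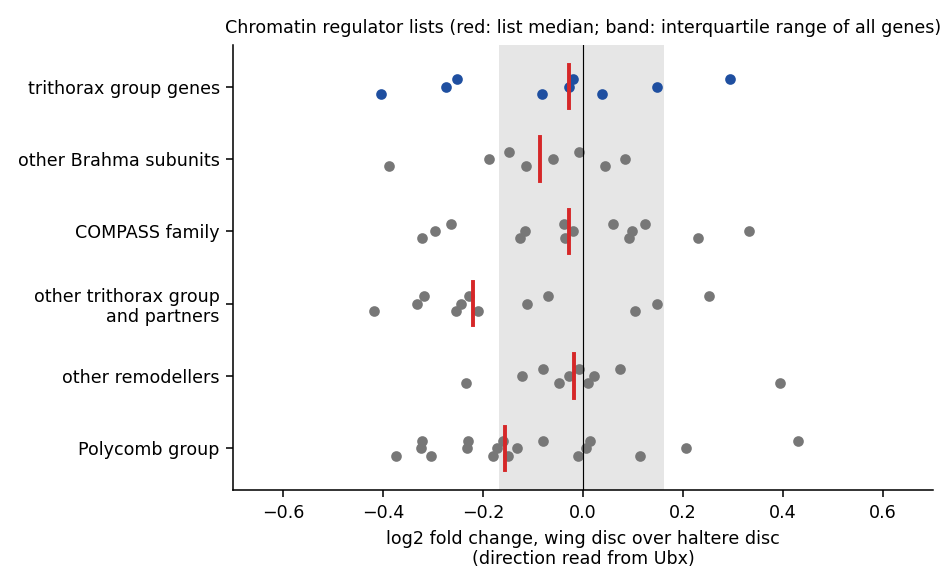
Log2 fold change, wing disc over haltere disc (horizontal axis), of each gene in the 9 trithorax group genes and in 5 other lists of chromatin regulators (rows); points are genes, red bars list medians and the grey band the interquartile range of all genes. Every point lies between -0.42 and 0.43, and the medians run from -0.22 for other trithorax group genes to -0.019 for other remodellers.

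All 7 disc patterning genes examined (vg, nub, ap, wg, en, hh and dpp) had rows, at 4.51 to 7.36 log2 CPM in the authors' deposited table. These are means over both tissues, so they cannot check either tissue by itself. Log2 fold changes of the 7 ran from -0.57 for wg to 0.82 for vg. Of the 7, 0 had an FDR under 0.05 and 3 an unadjusted p under 0.05 (edgeR), against 1.34% and 4.32% of all genes. RNA typical of other larval tissues was present as well. Of 10 marker genes of fat body, muscle, salivary gland and blood cells, 10 were negative and 7 had an FDR under 0.05 in the authors' deposited table (edgeR). Those not called were Mhc of muscle and the blood cell genes Hml and Pxn. Values of the 10 ran from Lsp1beta, a fat body storage protein, at -4.49 to Hml at -0.37. None was listed at 0. Their part in the values of the trithorax group genes was not tested, and their levels in each library are not known.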

How the data were processed

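RNA was sequenced from 3 wing disc and 3 haltere disc samples, grouped by title. The submitters' processing notes name HISAT2, HTSeq, edgeR and the build dm6, without versions. The strand and overlap modes of counting, the filter and the covariates are not given in the sources used here. Per the file headers, the authors deposited a log2 fold change, a mean log2 CPM, a p-value and an FDR per gene, with no values per sample, so depth, SDs and detection limits are unknown. The planned count test could not be used, and the authors' own p-values were taken. Of 7767 rows, 5 are summary lines of HTSeq, which held 43.3% of the summed CPM and were left out of the genes here. The deposited FDR matched a Benjamini-Hochberg adjustment over all 7767 rows to within 6.2e-06, so the authors' adjustment included these lines. The deposited fold changes, CPM and p-values were not recomputed without them. The number of per-sample columns set aside was 0.

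The members and lists were chosen with earlier results of these data known, and every member is named. From the other lists, the genes with the lowest and highest change and the smallest p-value are named, and further genes were chosen after their values were seen. Some listed genes, such as Bap111, appear in the table under other symbols. Exon lengths, overlaps and coordinates came from the Ensembl release 115 annotation, which uses dm6 coordinates and matched 7658 genes (98.7%). Exon length counts overlapping exons once. The approximate standard error assumes a normal two-sided p-value. Adjustment, standard error and centring were tested on simulated data. Python 3.11.15 with pandas 2.3.3, numpy 2.4.6 and scipy 1.17.1 was used. P-values set the difference between the tissues against the spread between these samples, whose source animals are not given in the sources used here.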

Additional observations from a re-analysis of the deposited data

How the results depend on the processing

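The count of trithorax group genes called different stayed at 0, as did the counts of the 4 related lists and the Polycomb group, with an FDR under 0.01 or 0.1, a Bonferroni adjustment, removal of the summary lines, a minimum expression of 1 log2 CPM with readjustment, and an unadjusted p under 0.05. All of these act on the same deposited p-values. The count over all genes was 104, and became 50 with the Bonferroni adjustment and 335 at an unadjusted p under 0.05; it lay between 80 and 125 otherwise. The median of the 9 genes ran from -0.065, as a mean, to 0.047, centred within 10 groups of exon length, an alternative chosen after seeing the data, as were leaving out each gene in turn and the length shared with no other gene. The highest gene per kilobase was 31.6 times the lowest with all exons, 22.4 times with the longest transcript and 12 times with unshared exon bases, a difference made by Trl. No paired analysis was possible because no values for single samples are in the deposited table; for the same reason DESeq2 and fits without single samples were not run. The planned search of promoters was not run.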

Other observations

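The Polycomb group, which opposes the trithorax group at homeotic genes, was examined as a further list. Of 18 genes, 0 had an FDR or an unadjusted p under 0.05 in the authors' deposited table (edgeR), and 13 were negative, with a median log2 fold change of -0.16. Over all genes the shares called were 1.34% and 4.32%, so 0 of 18 is near the background. Of all genes 49.9% were negative, with 56.5% in exon length group 4 and 71.0% in group 5, the longest. The median exon length of this list was 4098 bases, against 2212 for all genes. The part of length in its signs was not tested. The smallest p-value in this list belonged to pho, which encodes a DNA-binding protein of Polycomb response elements, at 0.43 with p = 0.0874 (edgeR) in the authors' deposited table. The lowest value was that of Jarid2, a partner of the methyltransferase complex, at -0.37 with p = 0.190 (edgeR) in the authors' deposited table. The catalytic subunit gene E(z) was at 0.014 in the authors' deposited table, and Pc, which encodes the reader of the Polycomb mark, was at -0.23. The genes ph-p and ph-d are closely related tandem copies that can share reads, so their values, -0.17 and -0.23 in the authors' deposited table, are uncertain.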
